A study of Mus musculus with 16 samples.

Results

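The 8 genes described here, *Hhex*, *Tle3*, *Bach2*, *Zbtb32*, *Il9r*, *Pecam1*, *Cd38* and *Nt5e*, are tied to the memory B cell (MBC) fate. They were taken by gene symbol from the 51912 genes of a bulk RNAseq table, and each symbol matched 1 row. The table held 16 libraries of total RNA from mouse spleen, 4 for each of 4 cMyc+ light zone (LZ) B cell subpopulations of the germinal center (GC). *Pecam1*, *Hhex* and, with all groups overlapping, *Cd38* had their highest mean level in the cMyc+early subpopulation and their lowest in cMyc+prePB. *Il9r* was instead high in both cMyc+early and cMyc+prePB and low in the late subpopulations. None of the 8 genes passed the multigroup comparison after adjustment over all genes tested in the main model, whereas *Pecam1* passed with the replicate number added as a block.

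The cells came from male and female cMyc gfp/gfp mice of 6 to 15 weeks, taken 7 d after they were given sheep red blood cells (SRBC) as antigen. In these mice GFP is fused to the cMyc protein, so that all 4 subpopulations are cMyc-GFP+, and none is an unselected control. All were sorted as B220+ CD38low CD95+ cells after depletion of CD43+ splenocytes. Of these, cMyc+prePB cells were CD69hi, cMyc+early cells CD23hi CD21/35hi, cMyc+lateCD23int cells CD23int CD21/35int and cMyc+lateCD23lo cells CD23lo CD21/35lo. The CD38low gate was set on the protein that *Cd38* encodes, so its transcript was measured only in cells already low for it. The labels number the libraries 1 to 4 in each subpopulation and do not say whether they came from separate animals or pools, and p-values here measure only the spread between these libraries. In bulk RNA, fewer cells expressing a gene and less RNA per cell cannot be told apart.

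MBCs leave the GC as long-lived, resting cells that respond quickly when antigen returns. HHEX is a homeobox transcription factor that favors the memory over the GC program together with TLE3, a Groucho-family corepressor. BACH2 is a repressor that holds back *Prdm1* and plasma cell differentiation, and ZBTB32 is a zinc-finger repressor that restrains the recall response of MBCs. IL9R is the ligand-binding chain of the interleukin 9 receptor and is found on GC-derived MBCs. PECAM1 is an adhesion molecule with inhibitory motifs that recruit phosphatases. CD38 and NT5E (CD73) are ectoenzymes that consume NAD and make adenosine from AMP, and mouse GC B cells carry less CD38 protein than naive B cells and MBCs.

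Values are normalized counts, that is, reads per gene divided by 1 size factor per library. Recovered reads per library ranged from 19812080 to 25795815, and 3 reads of a gene, below which it was treated as not measurable, corresponded to 2.48 to 3.23 normalized counts. Such a limit covers counting error only, since the reads carried no molecular identifiers and some may be copies. Per kb of exon, the mean normalized count over the 16 libraries was highest for *Cd38* (500.0), followed by *Bach2* (144) and *Pecam1* (124). It was 46.2 for *Il9r*, 36.1 for *Zbtb32*, 28.1 for *Hhex*, 24.9 for *Nt5e* and 11.6 for *Tle3*. All 8 genes are annotated as protein coding in GENCODE on GRCm38. Library values below are given in the order of replicates 1 to 4.

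Promoters of 7 of the 8 genes were found in RefSeq on GRCm38.p6, as the 250 bases before the RefSeq gene start, and 3 of them are shown 5′ to 3′ on the gene's strand. *Hhex* and *Il9r* are shown because their levels differed most between the subpopulations. *Tle3* is shown as the gene of the 7 with an E-box, the motif of MYC, by whose reporter the cells were sorted. The *Hhex* promoter lies at chr19:37434591-37434840 on the + strand and has 76% G and C, where the median of all promoters is 52.4%. The RefSeq start of *Hhex* lies inside the GENCODE coordinates given below, so that the end of this promoter overlaps them. The *Il9r* promoter lies at chr11:32200280-32200529 on the - strand and has 52.8%. The *Tle3* promoter lies at chr9:61372116-61372365 on the + strand and also has 52.4%, and its E-box, in capitals, starts 68 bases before the gene start.
Hhex: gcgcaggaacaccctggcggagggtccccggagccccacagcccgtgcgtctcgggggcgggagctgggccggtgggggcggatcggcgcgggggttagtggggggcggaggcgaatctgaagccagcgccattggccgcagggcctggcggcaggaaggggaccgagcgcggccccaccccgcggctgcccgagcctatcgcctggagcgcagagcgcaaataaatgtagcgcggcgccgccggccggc
Il9r: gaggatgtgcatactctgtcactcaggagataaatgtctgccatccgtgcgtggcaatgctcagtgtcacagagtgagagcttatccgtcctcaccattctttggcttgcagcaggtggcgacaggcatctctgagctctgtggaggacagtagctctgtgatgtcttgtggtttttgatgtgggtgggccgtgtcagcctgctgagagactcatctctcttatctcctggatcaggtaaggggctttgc
Tle3: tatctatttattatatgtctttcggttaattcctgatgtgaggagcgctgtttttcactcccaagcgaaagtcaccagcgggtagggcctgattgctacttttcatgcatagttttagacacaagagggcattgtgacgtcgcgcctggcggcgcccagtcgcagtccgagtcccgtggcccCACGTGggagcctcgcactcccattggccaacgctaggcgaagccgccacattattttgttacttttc
The E-box was searched as CACGTG, which reads the same on both strands, and was present in 6.02% of 32851 promoters of this length. The AP-1 core that Maf and BACH proteins can bind was searched as TGACTCA on both strands, can share its last 2 bases with an E-box, and was present in 4.46% of them but in none of the 7. A match is a run of letters and not a measured binding site.

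**Figure D1:**
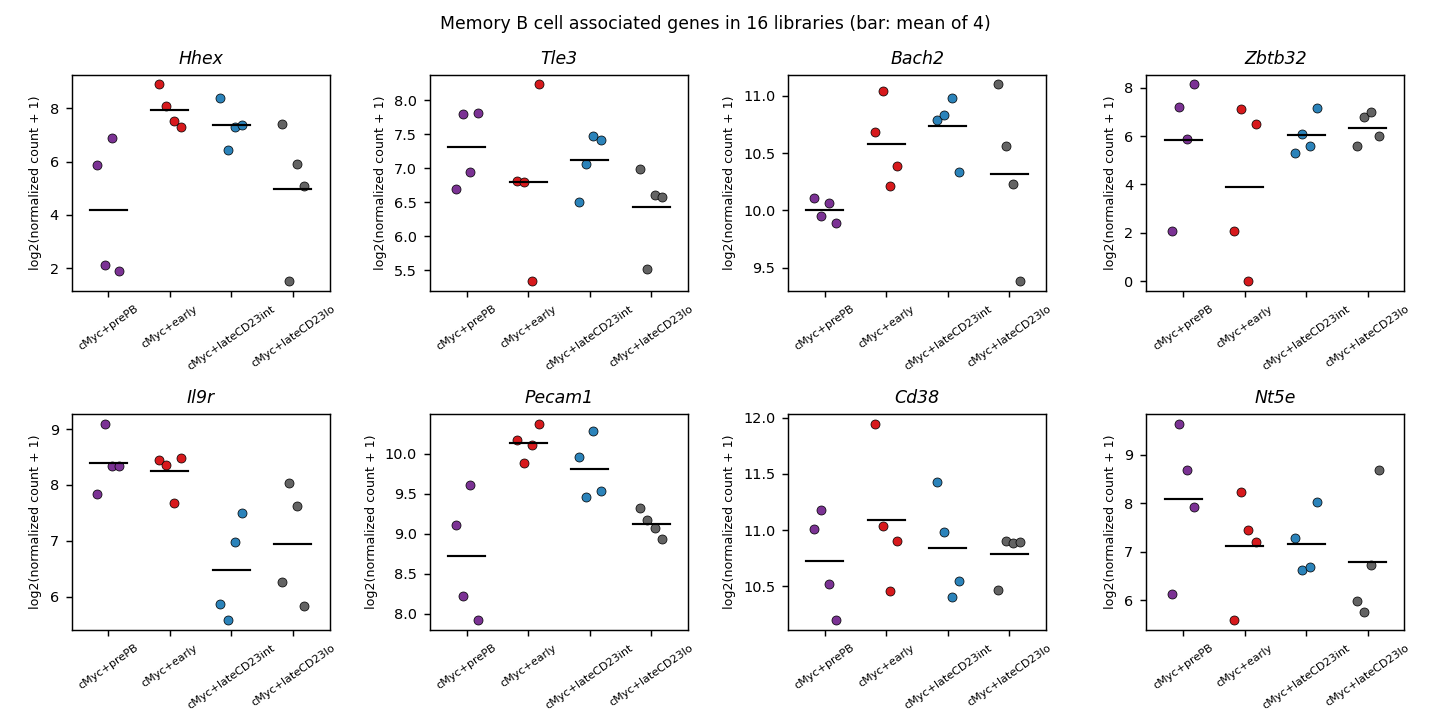
Levels of the 8 genes as log2(normalized count + 1), 1 panel per gene, with 1 point per library in each of the 4 subpopulations and a bar at the mean of 4. In cMyc+early all *Pecam1* points lie above those of cMyc+prePB and cMyc+lateCD23lo, and *Zbtb32* reaches 0 in 1 library.

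Among the transcription regulators, *Hhex* (chr19:37434810-37440731, + strand) varied most. Its normalized counts were 477, 273, 183 and 155 in cMyc+early and 338, 86.5, 155 and 164 in cMyc+lateCD23int. They were 168, 1.87, 59.1 and 32.6 in cMyc+lateCD23lo and 58.0, 3.31, 118 and 2.71 in cMyc+prePB. Each cMyc+early library lay above each cMyc+prePB library, while cMyc+early overlapped both late subpopulations. The lowest values, in cMyc+prePB replicates 2 and 4 and cMyc+lateCD23lo replicate 2, rested on 4, 3 and 2 reads. The mean was 272 ± 146 (SD, n = 4) in cMyc+early, 186 ± 107 in cMyc+lateCD23int, 65.4 ± 72.3 in cMyc+lateCD23lo and 45.5 ± 54.9 in cMyc+prePB, and no neighbours in this order differed at an unadjusted p under 0.05 in limma. On the log2(normalized count + 1) scale, on which libraries near 0 weigh heavily in a mean, *Hhex* was higher in cMyc+early than in the mean of the other 3 by 2.44 (SE 0.95, limma unadjusted p = 0.0192, adjusted p = 0.619). The difference was 3.76 (SE 1.16) against cMyc+prePB (limma unadjusted p = 0.00453, adjusted p = 0.311) and 2.98 (SE 1.16) against cMyc+lateCD23lo (limma unadjusted p = 0.0195, adjusted p = 0.379). Between cMyc+prePB and cMyc+lateCD23int it was -3.18 (SE 1.16, limma unadjusted p = 0.0133, adjusted p = 0.428). The difference was smaller in the quasi-likelihood test of edgeR on recovered reads, where cMyc+early exceeded cMyc+prePB by 2.58 (edgeR unadjusted p = 0.0285), and the other 2 pairs did not pass (edgeR unadjusted p = 0.068 and 0.0734).

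*Tle3* (chr9:61372366-61418497, + strand), the corepressor, had overlapping levels. Its normalized counts were 102, 222, 122 and 224 for cMyc+prePB, 111, 111, 39.5 and 301 for cMyc+early, 89.6, 133, 176 and 170 in cMyc+lateCD23int and 126, 44.9, 96.8 and 94.8 in cMyc+lateCD23lo. The highest and the lowest library both belonged to cMyc+early, and all groups overlapped. Against the other 3, cMyc+early differed by -0.15 on the log2 scale, with a 95% interval of -1.12 to 0.82 (limma unadjusted p = 0.743, adjusted p = 0.977), and the sign was positive in edgeR (0.12) and without cMyc+early replicate 3 (0.33).

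*Bach2* (chr4:32238804-32586108, + strand) had its lowest mean in cMyc+prePB. Its normalized counts there were 1102, 986, 1067 and 945. They were 1648, 2103, 1185 and 1342 in cMyc+early, 1766, 1821, 2022 and 1287 in cMyc+lateCD23int and 2193, 1511, 1201 and 667 in cMyc+lateCD23lo. The 4 cMyc+prePB libraries lay close together and below every library of cMyc+early and cMyc+lateCD23int, whereas cMyc+lateCD23lo held both the highest and the lowest value of the series. The cMyc+prePB mean of 1025 ± 72.0 (SD, n = 4) compared with 1569 ± 405 for cMyc+early, 1724 ± 311 for cMyc+lateCD23int and 1393 ± 637 for cMyc+lateCD23lo. *Bach2* differed by -0.73 (SE 0.28) between cMyc+prePB and cMyc+lateCD23int on the log2 scale (limma unadjusted p = 0.0184, adjusted p = 0.457). Between cMyc+early and the other 3 the difference was 0.23 (SE 0.23, limma unadjusted p = 0.33, adjusted p = 0.908). The antisense gene *Bach2os* overlaps 537 bp of *Bach2* exons, and whether reads were counted by strand is not given in the sources used here.

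*Zbtb32* (chr7:30589681-30598909, - strand) was at or under the limit of measurement in 3 libraries. Its normalized counts were 3.22, 146, 58.6 and 281 for cMyc+prePB, 3.14, 136, 0 and 89.4 for cMyc+early, 38.8, 67.2, 47.8 and 141 in cMyc+lateCD23int and 47.4, 109, 128 and 63.2 in cMyc+lateCD23lo. Replicate 1 of cMyc+prePB and replicates 1 and 3 of cMyc+early held 3, 3 and 0 reads, and all groups overlapped. For cMyc+early against the other 3 the difference was -2.16 on the log2 scale, with a 95% interval of -4.53 to 0.21 (limma unadjusted p = 0.0711, adjusted p = 0.806), and in edgeR it was -0.69 (unadjusted p = 0.504).

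Of the surface molecules, *Pecam1* (chr11:106654217-106750628, - strand) gave the smallest p of the 8 genes. Its normalized counts were 1151, 941, 1104 and 1326 in cMyc+early and 989, 701, 1247 and 742 in cMyc+lateCD23int. They were 636, 574, 538 and 489 in cMyc+lateCD23lo and 552, 299, 780 and 241 in cMyc+prePB. Every cMyc+early library exceeded every cMyc+prePB and cMyc+lateCD23lo library, every cMyc+lateCD23int library exceeded every cMyc+lateCD23lo library, and cMyc+early overlapped cMyc+lateCD23int. The mean was 1130 ± 159 (SD, n = 4) in cMyc+early, 920 ± 252 in cMyc+lateCD23int, 559 ± 61.9 in cMyc+lateCD23lo and 468 ± 248 in cMyc+prePB. Of the neighbours in this order, cMyc+lateCD23int and cMyc+lateCD23lo differed at an unadjusted p under 0.05, by 0.68 (SE 0.31, limma unadjusted p = 0.042, adjusted p = 0.762). On the log2 scale *Pecam1* was higher in cMyc+early than in the other 3 by 0.92 (SE 0.26, limma unadjusted p = 0.00206, adjusted p = 0.347). Against cMyc+prePB the difference was 1.42 (SE 0.31, limma unadjusted p = 0.000255, adjusted p = 0.0865) and against cMyc+lateCD23lo it was 1.01 (SE 0.31, limma unadjusted p = 0.00461, adjusted p = 0.242). Between cMyc+prePB and cMyc+lateCD23int it was -1.09 (SE 0.31, limma unadjusted p = 0.0026, adjusted p = 0.244). Without cMyc+prePB replicate 3, the highest of its group, the difference between cMyc+early and cMyc+prePB was 1.71 and passed the threshold (limma adjusted p = 0.0408). This pair also passed with the replicate number added as a block.

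*Il9r* (chr11:32187541-32200279, - strand) followed another order. Its normalized counts were 227, 547, 324 and 322 in cMyc+prePB and 350.0, 327, 205 and 357 in cMyc+early. They were 57.7, 46.8, 126 and 179 in cMyc+lateCD23int and 75.4, 261, 197 and 56.1 in cMyc+lateCD23lo. All cMyc+prePB and cMyc+early libraries lay above all cMyc+lateCD23int libraries, and both overlapped cMyc+lateCD23lo and each other. The cMyc+prePB mean was 355 ± 136 (SD, n = 4), followed by 310 ± 70.9 for cMyc+early, 147 ± 98.1 for cMyc+lateCD23lo and 102 ± 62.1 for cMyc+lateCD23int. On the log2 scale the *Il9r* level of cMyc+prePB exceeded that of cMyc+lateCD23int by 1.92 (SE 0.53, limma unadjusted p = 0.00203, adjusted p = 0.224) and that of cMyc+lateCD23lo by 1.46 (SE 0.53, limma unadjusted p = 0.0132, adjusted p = 0.264). In cMyc+early it was higher than in cMyc+lateCD23int by 1.76 (SE 0.53, limma unadjusted p = 0.0039, adjusted p = 0.9999) and than in cMyc+lateCD23lo by 1.31 (SE 0.53, limma unadjusted p = 0.0245, adjusted p = 0.404). Between cMyc+early and cMyc+prePB the difference was -0.16, with a 95% interval of -1.28 to 0.96. Against the other 3 together, cMyc+early differed by 0.97 (SE 0.44, limma unadjusted p = 0.0386, adjusted p = 0.734).

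The transcripts of the ectoenzymes overlapped in all pairs of subpopulations. *Cd38* (chr5:43868553-43912375, + strand) had normalized counts of 2067, 2314, 1465 and 1171 for cMyc+prePB, 3952, 2102, 1403 and 1918 for cMyc+early, 2750, 2028, 1349 and 1491 in cMyc+lateCD23int and 1410, 1916, 1889 and 1898 in cMyc+lateCD23lo. It was well measured in every library in spite of the CD38low gate, and its highest value was cMyc+early replicate 1. Its difference between cMyc+early and the other 3 was 0.30 on the log2 scale, with a 95% interval of -0.20 to 0.81 (limma unadjusted p = 0.224, adjusted p = 0.883). *Nt5e* (chr9:88327197-88372092, + strand) had normalized counts of 68.8, 795, 408 and 242 for cMyc+prePB, 47.2, 299, 174 and 145 for cMyc+early, 155, 97.7, 102 and 260.3 in cMyc+lateCD23int and 62.5, 53.3, 105 and 412 in cMyc+lateCD23lo. Its 3 highest values, in cMyc+prePB replicates 2 and 3 and cMyc+lateCD23lo replicate 4, belonged to subpopulations that also held low libraries. The cMyc+early level differed from the other 3 by -0.23 on the log2 scale, with a 95% interval of -1.52 to 1.06 (limma unadjusted p = 0.713, adjusted p = 0.972), and it was 0.28 without cMyc+early replicate 1.

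**Figure D2:**
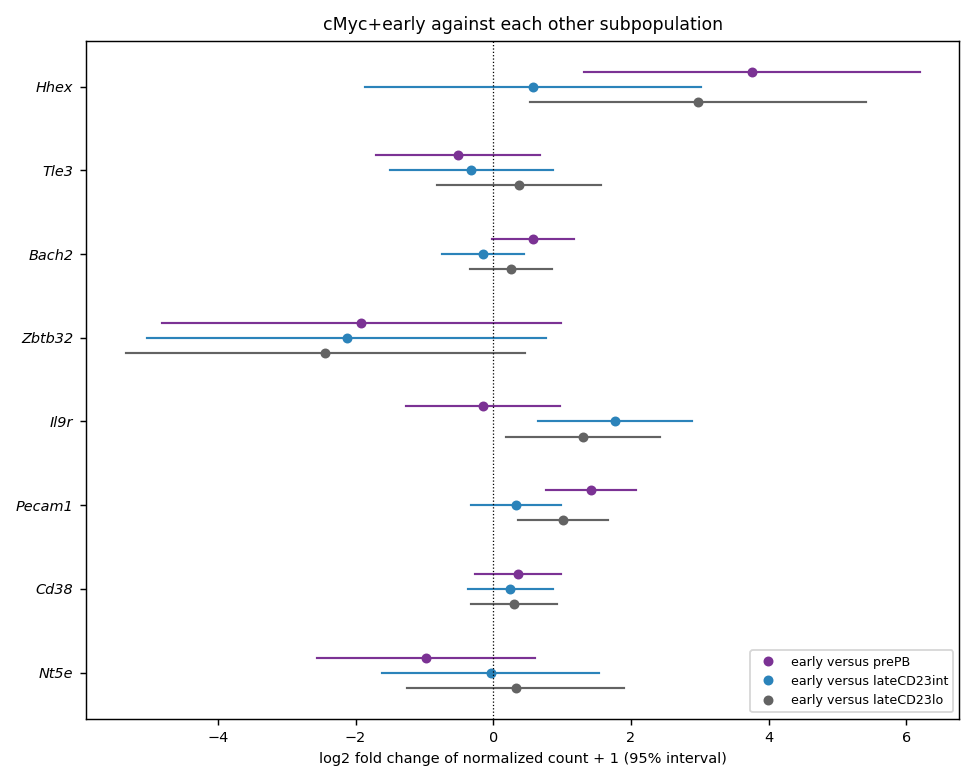
Log2 fold change of cMyc+early against each of the other 3 subpopulations for the 8 genes (points, limma) with 95% intervals (lines) on the log2(normalized count + 1) scale. *Pecam1* and *Hhex* lie to the right of 0 against cMyc+prePB and cMyc+lateCD23lo, and *Il9r* against both late subpopulations.

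The multigroup comparison asked whether a gene differs between any of the 4 subpopulations. In the moderated F test of limma, 0 of the 8 genes had an adjusted p under 0.05, beside 0.408% of the 12505 genes tested, and edgeR also called 0. With the replicate number added as a block, *Pecam1* passed (limma F test, adjusted p = 0.0348), beside 173 of the 12505 genes. The study's multigroup comparison used a p of 0.04 as its threshold, and taken here without adjustment, 3 of 8 passed it, where 8.55% of all genes tested did. These were *Pecam1* (limma unadjusted p = 0.00101, adjusted p = 0.116), *Il9r* (limma unadjusted p = 0.00386, adjusted p = 0.215) and *Hhex* (limma unadjusted p = 0.0113, adjusted p = 0.326). In edgeR *Hhex* did not pass (unadjusted p = 0.0798), which left 2 of 8. The study listed *Pecam1*, *Il9r* and *Hhex* among memory genes that had passed its own multigroup comparison on the same libraries. Their passing here was thus largely set in advance. The count of members that passed is therefore not independent evidence of a difference between the subpopulations, nor of a direction. The unadjusted p of limma was 0.0849 for *Bach2*, 0.313 for *Zbtb32*, 0.376 for *Nt5e*, 0.445 for *Tle3* and 0.637 for *Cd38*.

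The contrasts of limma asked where the members differ. Adjusted over all genes, 0 of 8 were called for cMyc+early against the other 3, beside 0.04% of all genes tested, and edgeR called 0 as well. At an unadjusted p under 0.05, *Hhex*, *Pecam1* and *Il9r* were higher in cMyc+early, beside 6.58% of all genes tested in either direction, and the other 5 genes did not pass. The median log2 fold change of the 8 genes was 0.27, and that of all genes tested 0.0019. The study had named *Hhex*, *Pecam1* and *Il9r* as higher in cMyc+early on these same libraries, so neither the count nor the median is independent evidence. For cMyc+early against cMyc+prePB, 0 of 8 were called beside 0.192% of all genes, 2 passed unadjusted beside 8.58%, and *Hhex*, *Bach2* and *Pecam1* did not overlap, beside 4.23%. For cMyc+early against cMyc+lateCD23int, 0 were called beside 0.008%, and *Il9r* alone passed unadjusted, beside 3.71%, and did not overlap, beside 2.48%. For cMyc+early against cMyc+lateCD23lo, 0 were called beside 0.28%, 3 passed unadjusted beside 10.3%, and *Pecam1* did not overlap, beside 6.23%. The 3 genes higher in cMyc+early than in cMyc+lateCD23lo were again *Hhex*, *Pecam1* and *Il9r*, and these contrasts share the cMyc+early libraries.

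Among the pairs without cMyc+early, cMyc+prePB and cMyc+lateCD23int gave the most members at an unadjusted p under 0.05. Of the 8 genes 0 were called there beside 0.144% of all genes tested, whereas 4 passed unadjusted beside 8.77%, with *Hhex*, *Bach2* and *Pecam1* lower and *Il9r* higher in cMyc+prePB. *Bach2* and *Il9r* did not overlap in this pair, beside 5.21% of all genes. For cMyc+prePB against cMyc+lateCD23lo, 0 were called beside 0.264%, *Il9r* passed unadjusted beside 12.7%, and 0 were free of overlap beside 6.56%. For cMyc+lateCD23int against cMyc+lateCD23lo, 0 were called beside 0.008%, and *Pecam1* passed unadjusted beside 6.28% and did not overlap beside 3.77%. In all 4 of the pairs in which *Pecam1* passed unadjusted, the higher group was cMyc+early or cMyc+lateCD23int.

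Of the 14 other memory-associated genes, 3 passed the F test of limma after adjustment, beside 0.408% of all genes tested, and 9 at an unadjusted p of 0.04 or less, beside 8.55%. Some of them were named by the study on these libraries, so this count too is not independent. *Gpr183*, a receptor for oxysterols that positions B cells in the follicle, had a mean of 1842 ± 417 (SD, n = 4) in cMyc+early, 1465 ± 356 in cMyc+prePB, 1047 ± 188 in cMyc+lateCD23int and 519 ± 170 in cMyc+lateCD23lo (limma F test, adjusted p = 0.00776). *Ccr6*, a chemokine receptor on MBC precursors, had 1032 ± 450, 254 ± 34.6, 495 ± 230 and 150.3 ± 78.9 in the same order (limma F test, adjusted p = 0.0236). *Klf2*, a transcription factor that controls lymphocyte traffic, had 79.3 ± 49.7, 21.9 ± 14.4, 39.1 ± 29.9 and 3.15 ± 3.12 in that order (limma F test, adjusted p = 0.102). In the contrast of cMyc+early with the other 3, 0 of the 14 were called after adjustment, beside 0.04% of all genes tested. At an unadjusted p under 0.05, 7 were higher and none was lower, beside 6.58% in either direction. Thus *Pecam1* and *Hhex* shared with *Gpr183*, *Ccr6* and *Klf2* the highest mean in cMyc+early, whereas *Il9r* had its highest mean in cMyc+prePB. *Cd38* had the same order of means as *Pecam1* and *Hhex*, from 2344 in cMyc+early to 1754 in cMyc+prePB, with all groups overlapping. Of the same 14 genes, *Cd80*, *Ski*, *Zeb2* and *Fcrl5* had their highest mean in cMyc+prePB and *Skil* in cMyc+lateCD23lo. Both *Il9r* and *Gpr183* had their 2 highest means in cMyc+early and cMyc+prePB.

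**Figure D3:**
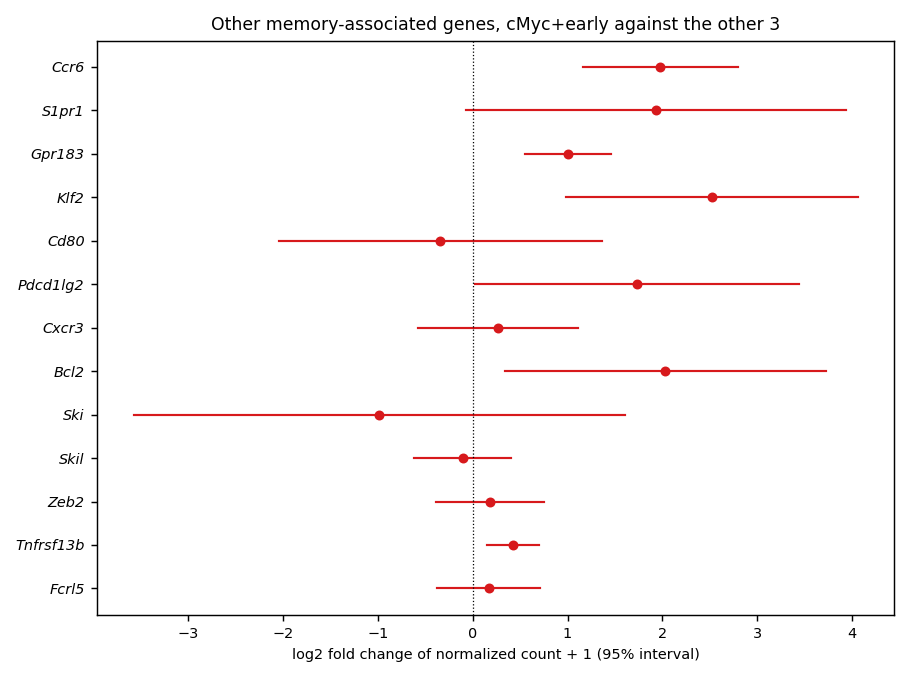
Log2 fold change of cMyc+early against the mean of the other 3 subpopulations for other memory-associated genes (points, limma) with 95% intervals (lines). *Klf2* lies farthest to the right of the genes plotted, and the intervals of *Cd80*, *Cxcr3*, *Ski*, *Skil*, *Zeb2*, *Fcrl5* and *S1pr1* cross 0.

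Partners of the members were measured in the same libraries. Of 7 genes of the IL-9 receptor pathway, 1 passed the F test of limma after adjustment, beside 0.408% of all genes tested, and 4 at an unadjusted p of 0.04 or less, beside 8.55%. *Stat5a*, a transcription factor that the receptor activates, had a cMyc+prePB mean of 1308 ± 238 (SD, n = 4), against 781 ± 126 for cMyc+early, 527 ± 101 in cMyc+lateCD23int and 559.7 ± 178 in cMyc+lateCD23lo (limma F test, adjusted p = 0.0447). *Stat5a*, like *Il9r*, thus had its highest mean in cMyc+prePB, followed by cMyc+early. *Jak1*, the kinase bound to IL9R, and *Stat3* passed unadjusted (limma F test, adjusted p = 0.419 and 0.45). Of 5 ectoenzyme partners 3 were tested, and 1 of these passed at both thresholds, beside the same shares of all genes. This was *Ada*, which removes the adenosine that NT5E makes, with a mean of 5954 ± 705 in cMyc+lateCD23lo, 4190 ± 471 in cMyc+lateCD23int, 2923 ± 704 for cMyc+prePB and 2850 ± 543 for cMyc+early (limma F test, adjusted p = 0.0175). Of the 3 phosphatases recruited by PECAM1 and of the 7 tested of 9 corepressor and Maf partners of TLE3 and BACH2, 0 passed at either threshold in limma.

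Of 6 factors of the opposing fates, 0 passed the F test of limma after adjustment, beside 0.408% of all genes tested, and 3 passed at an unadjusted p of 0.04 or less, beside 8.55%. *Prdm1*, the plasma cell factor that BACH2 represses, had a mean of 2.74 ± 3.59 (SD, n = 4) in cMyc+early, 35.2 ± 55.9 in cMyc+prePB, 80.7 ± 41.9 in cMyc+lateCD23int and 82.9 ± 51.9 in cMyc+lateCD23lo (limma F test, adjusted p = 0.111). Its cMyc+early mean lay near the limit of 3 reads. In cMyc+prePB its median was 7.73 and its highest library 119, so that mean was set largely by that library. The order of the *Prdm1* means did not mirror that of *Bach2*, whose lowest mean was in cMyc+prePB. *Myc* had 3823 ± 1022 in cMyc+prePB and 1427 ± 229 in cMyc+lateCD23lo (limma F test, adjusted p = 0.35). *Bcl6*, the GC factor, had 1679 ± 418 in cMyc+prePB and 2966 ± 993 in cMyc+lateCD23lo (limma F test, adjusted p = 0.419).

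The genes whose profile was most like that of a member were ranked by Pearson's r of log2(normalized count + 1) over the 16 libraries, which share their subpopulations and size factors, and these values are descriptions. *Mef2c* (r = 0.892, Spearman's rho = 0.85) was among the 2 genes most like *Pecam1*. *Lmo2* (r = 0.897, rho = 0.815) and *Arl6ip5* (r = 0.884, rho = 0.665) were most like *Hhex*. For *Il9r* they were *Uck1* (r = 0.854, rho = 0.80) and *Zfp428* (r = 0.847, rho = 0.844), and neither was the gene of a signalling partner. The nearest genes included *AC149090.1* (r = 0.918) for *Bach2*, *Coq10a* (r = 0.858) and *Taf2* (r = 0.837) for *Tle3*, and *Bpifb4* (r = 0.898) and *Tmem159* (r = 0.88, rho = 0.45) for *Zbtb32*. They were *Tmem254c* (r = 0.871) and *Snora57* (r = 0.785) for *Cd38*, and *Noc4l* (r = 0.832) and *Ass1* (r = 0.82) for *Nt5e*. No member was among the 2 genes most like another member.

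Markers of other cells that the sort could hold were compared with the members. The GC B cell markers, 9 of 9 tested, summed to between 89262 and 220580 normalized counts per library. *Fcer2a*, which encodes CD23, had a mean of 13398 in cMyc+early, 8594 in cMyc+lateCD23int and 2274 in cMyc+lateCD23lo, the order of the gates. *Cr2*, which encodes CD21/35, had a mean of 6638 in cMyc+early, 6928 in cMyc+lateCD23int and 4738 in cMyc+lateCD23lo, so cMyc+early was not the highest. *Cd69* had a mean of 3453 in cMyc+prePB and 3762 in cMyc+lateCD23int, so its transcript did not follow the CD69hi gate. The 6 naive follicular B cell markers summed to 3571, 1798, 1682 and 2180 in cMyc+early, 2275, 1131, 1126 and 810 in cMyc+lateCD23int, 1162, 502, 793 and 568 in cMyc+prePB and 1206, 463, 780 and 659 in cMyc+lateCD23lo. The sum was highest in cMyc+early and did not overlap cMyc+prePB or cMyc+lateCD23lo, the same 2 groups that *Pecam1* did not overlap. Of the 6 genes, 3 were higher in cMyc+early at an unadjusted p under 0.05 in limma, beside 6.58% of all genes tested in either direction. One of these, *Klf2*, is also on the list of memory-associated genes. Another, *Ighd*, which encodes the IgD heavy chain of naive B cells, had a mean of 685 ± 132 (SD, n = 4) in cMyc+early, 560 ± 206 in cMyc+lateCD23int, 357 ± 210 in cMyc+prePB and 269 ± 86.8 in cMyc+lateCD23lo (limma F test, adjusted p = 0.285). *Ccr7*, a chemokine receptor of naive B cells on the same list, had its lowest mean in cMyc+early, 66.9 ± 46.1 against 168 ± 78.4 in cMyc+prePB, 97.1 ± 72.7 in cMyc+lateCD23int and 136 ± 97.1 in cMyc+lateCD23lo. Its difference between cMyc+early and the other 3 was -1.40 on the log2 scale (limma unadjusted p = 0.0824, adjusted p = 0.811). The study defined follicular B cells as CD23hi, like cMyc+early, but as CD21/35lo, CD38hi and CD95neg. The cMyc+early cells were sorted as CD21/35hi, CD38low and CD95+. The part of naive follicular B cells in the levels of *Pecam1* and *Hhex* was not tested.

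*Pecam1* is also expressed by endothelial cells and platelets. Of 5 endothelial markers, *Kdr*, *Tek* and *Emcn* were at 0 in all 16 libraries, and the list summed to between 9.93 and 26.2 in cMyc+early and between 2.04 and 165 in the other subpopulations. The 4 platelet markers summed to between 7.08 and 200.2 in cMyc+early and between 7.21 and 291 in the others. Neither list had its highest sum in cMyc+early. Only 1 of the 5 endothelial and 2 of the 4 platelet markers passed the filter on low values, and the part of such cells in the level of *Pecam1* was not tested. The 7 T cell markers summed to at most 35.6 in cMyc+early and 176 elsewhere, the 5 myeloid markers to between 203 and 351 in cMyc+early and up to 1261 elsewhere, and the 3 erythroid markers to between 16.5 and 2225 over all libraries.

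**Figure D4:**
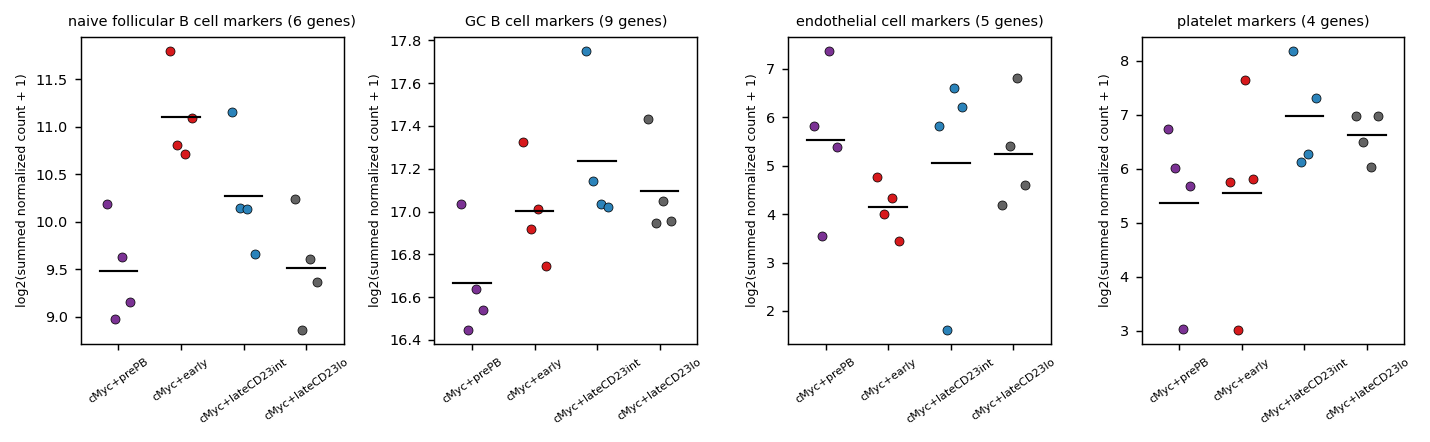
Summed level of 4 marker lists as log2(summed normalized count + 1), with 1 point per library in each subpopulation and a bar at the mean of 4. Naive follicular B cell markers are highest in cMyc+early, whereas endothelial markers have their lowest mean there and platelet markers their highest point in cMyc+lateCD23int.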

How the data were processed

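Total RNA of 16 libraries, 4 per subpopulation, was sequenced after low-input preparation. The values the authors deposited are a signal, the normalized count of each gene, obtained by dividing its count by the size factor of the library. The submitters' processing notes name Trimmomatic 0.36, STAR 2.5.2a, RSEM 1.2.31, DESeq2 1.20.0, R 3.5.1 and GRCm38, without the settings, and strand was not given in the sources used here. Every value was a whole multiple of the value of 1 read to within 1e-06 of a read, so whole reads were recovered for 100% of them. Columns were matched to libraries by the names in the labels.

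limma 3.58.1 (R 4.3.3) was fitted to log2(normalized count + 1) of genes whose mean was 10 or more, 12505 in number, as 1 model over all libraries. The prior was trended, and p-values were adjusted by Benjamini and Hochberg over 12505 tests per comparison. edgeR 4.0.16 (quasi-likelihood, recovered reads) was an alternative, as were pseudocounts of 0.5 and 5, no filter, a mean of at least 50, the same total, quantile normalization, the replicate block, only the groups compared, and leaving out each library. All 8 members passed the filter. The script of the tests was tested on simulated data. GENCODE matched 51719 of 51912 identifiers. Promoters are from RefSeq.

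The members and gene lists were chosen with earlier results of these data known. All 8 members are named. Of each list, at most 4 genes with an unadjusted F test p of 0.04 or less are named, smallest p first, with the 2 genes most like each member. A few genes that this rule names are not reported here. Contrasts of a member are given for cMyc+early against the other 3 and for pairs with an unadjusted p under 0.05, and intervals of a few others, the genes of the sort markers, *Ccr7* and the genes named in captions were chosen after the values were seen.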

Additional observations from a re-analysis of the deposited data

Results flagged for a closer look

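In 2 of the 32 groups of 4 libraries checked, 1 library stood apart from the other 3 by more than Dixon's 95% limit, and chance alone gives about 1 in 20. *Cd38* was at 1410 normalized counts in cMyc+lateCD23lo replicate 1, where the nearest of the others was at 1889. *Nt5e* was at 412 in cMyc+lateCD23lo replicate 4, where the nearest was at 105. Neither gene passed the multigroup comparison.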

How the results depend on the processing

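Under the alternatives, the count of members with an adjusted p under 0.05 changed in 2 comparisons, and in both it was *Pecam1* that passed. In the F test it was 0 with all libraries, between 0 and 1 when single libraries were left out, with 1 reached without cMyc+prePB replicate 3 (limma adjusted p = 0.0415). The replicate block gave 1 as well (limma adjusted p = 0.0348). For cMyc+early against cMyc+prePB it ranged likewise from 0 to 1 when single libraries were left out, and was 1 with the replicate block (limma adjusted p = 0.0257). The cause was not tested. The replicate block changed no other call of a member, and raised the genes passing the F test from 51 to 173. The correlations of deviations from the group means ranged from -0.129 to 0.174 for same-numbered libraries, with 5 of 24 pairs over 0.1. Their mean was 0.0509, against -0.0166 for differently numbered libraries of different subpopulations. Of the 16 libraries, 11 correlated best with their own number, where each could match any of 4 numbers. The summed GC B cell and naive follicular B cell markers were each highest in replicate 1 of every subpopulation. The erythroid sum was highest in replicate 4 of every subpopulation except cMyc+lateCD23lo. In the other marker lists no replicate number was highest throughout. The main model did not account for the replicate number. Whether same-numbered libraries deviate together was not tested.

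Of the fold changes, that of *Tle3* for cMyc+early against the other 3 turned positive in edgeR (0.12), and when single libraries were left out it ranged from -0.63 to 0.33, positive without cMyc+early replicate 3. That of *Nt5e* ranged from -0.60 to 0.28, positive without cMyc+early replicate 1. Neither was called in any of these. The members at an unadjusted p of 0.04 or less numbered 2 (edgeR) to 4, with *Bach2* the gene added, and the other memory-associated genes 6 (edgeR) to 11 (replicate block). The genes passing the F test numbered 29 in edgeR and 31 without the filter. Precision is limited by 4 libraries per group and, for *Hhex* and *Zbtb32*, by libraries with 0 to 4 reads.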
